A study of Mus musculus with 12 samples.

Results

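The 7 fatty acid elongases Elovl1 to Elovl7 were followed in white adipose tissue of male mice with a knockout of Ahnak (KO) and of wild-type (WT) controls, each fed a high fat diet (HFD) or regular chow. They were found by symbol: every row of the value table annotated with exactly 1 of the 7 symbols was taken, which gave 1 row for each gene, so 7 of the 19937 genes measured. Ahnak encodes a very large scaffold protein. The series holds 12 one-colour whole-transcript arrays in 4 groups of 3: KO on HFD, WT on HFD, KO on chow and WT on chow. All animals were 18 weeks old and spent 12 weeks on their diet, and the HFD held 60% fat, 20% carbohydrate and 20% protein. The sources used here do not give the strain, the design of the Ahnak allele or the fat depot. The labels number the replicates but do not tie them to separate animals. The p-values therefore cover only the spread among these arrays, which may be technical.

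Elongases are membrane enzymes of the endoplasmic reticulum. Each catalyses the condensation step that opens a round of chain elongation, in which malonyl-CoA lengthens a fatty acyl-CoA; a reductase (HSD17B12), a dehydratase (HACD) and a second reductase (TECR) then finish the round. The family divides by substrate. ELOVL6 turns palmitate into stearate and links fatty acid synthesis to long chain lipids; its gene is a known target of the lipogenic factor SREBP-1c. ELOVL7, ELOVL3 and ELOVL1 lengthen longer saturated and monounsaturated chains. ELOVL5 and ELOVL2 act on polyunsaturated chains, and ELOVL4 makes the ultra long chains of retina and skin. In fat, Elovl6 is part of the lipogenic programme, and Elovl3 is best known from brown fat of mice in the cold.

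The promoters of Elovl7 and Elovl6 are shown because these genes had the largest differences of the family. Both are taken from RefSeq on build GRCm38.p6 and give the 250 bases before the annotated start, 5′ to 3′ on the gene's strand, in lower case. Elovl7 lies at chr13:108214154-108214403 and Elovl6 at chr3:129532136-129532385, both on the + strand, and 6 of the 7 elongases matched the table. Capitals mark GGGCGG or its reverse complement CCGCCC, the box bound by Sp1.
Elovl7: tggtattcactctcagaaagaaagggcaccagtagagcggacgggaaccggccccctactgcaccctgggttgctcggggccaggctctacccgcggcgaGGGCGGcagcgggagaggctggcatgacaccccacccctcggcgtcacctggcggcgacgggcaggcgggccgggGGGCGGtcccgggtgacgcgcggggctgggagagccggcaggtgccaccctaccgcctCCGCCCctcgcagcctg
Elovl6: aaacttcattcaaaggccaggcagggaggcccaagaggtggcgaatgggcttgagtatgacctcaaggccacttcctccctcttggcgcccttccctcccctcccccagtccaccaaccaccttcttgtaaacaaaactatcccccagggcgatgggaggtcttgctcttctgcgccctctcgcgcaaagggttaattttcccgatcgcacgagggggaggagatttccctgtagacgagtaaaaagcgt

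The Elovl7 promoter held 3 such boxes and was 73.6% G or C; the Elovl6 window held 0 and was 56.4% G or C. Of the 32851 RefSeq promoter windows of this length, 32.74% held the box on either strand. Both windows were also searched on both strands for TCACNCCAC (a sterol regulatory element, in 1.05% of windows), the E box CACGTG (6.02%) and the NF-Y box CCAAT (33.85%), and held 0 matches to each. In the other promoters of the family the Sp1 box lay before Elovl1, Elovl2 and Elovl4. The E box lay once before Elovl5, which also held 2 NF-Y boxes, and Elovl1 held 1 NF-Y box that overlapped an Sp1 box. These are matches of letters in a short window and say nothing of binding.

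Pairs of arrays from the same group had r = 0.985 to 0.996 over genes, which are not independent of each other. The 7 adipocyte markers averaged between 12.3 and 13.0 on the log2 scale on every array. Ahnak itself lay at 9.58, 9.40 and 9.45 in KO on HFD, against 10.27, 9.68 and 10.04 in WT on HFD. On chow it lay at 9.31, 9.27 and 9.42 in KO and at 9.94, 10.06 and 10.08 in WT. The KO arrays thus lay below the WT arrays on both diets and kept a signal; where the probes lie relative to the altered part of the gene is not known here. Ahnak fell on HFD (-0.52 ± 0.13, adjusted p = 0.021) and had -0.69 ± 0.13 on chow (adjusted p = 0.38). WT HFD replicate 2 stood apart in several readouts given below. So did WT HFD replicate 1, whose mean macrophage marker level was 10.5, against 12.0 and 11.5 on replicates 2 and 3. Values are log2 intensities as deposited, and changes are log2 differences of group means ± SE from 1 limma fit to all 12 arrays, n = 3 arrays a group. The threshold was an adjusted p of 0.05 (Benjamini-Hochberg, over the 19937 genes).

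Elovl7 had the largest difference of the 7 between KO and WT on HFD, and Elovl6 the largest on chow. On HFD, 1 of 7 elongases rose in KO (Elovl7), 1 fell (Elovl1) and 5 did not pass, with a median change of -0.08 beside 0.02 over all genes. Of all genes 13.5% passed in that comparison, 6.65% higher and 6.85% lower. On chow 0 of 7 passed in the limma fit, as did 0% of all genes, while 1116 of the 19937 genes had an unadjusted p under 0.05; the elongases' median was 0.11, beside 0.01 over all genes. The KO and WT arrays did not overlap for 3 of 7 elongases on HFD (Elovl1, Elovl3 and Elovl7), where 30.9% of all genes did not. On chow they did not overlap for 3 of 7 (Elovl1, Elovl4 and Elovl6), where the share was 11.5%. The intensities of the 7 genes by array are plotted first.

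**Figure D1:**
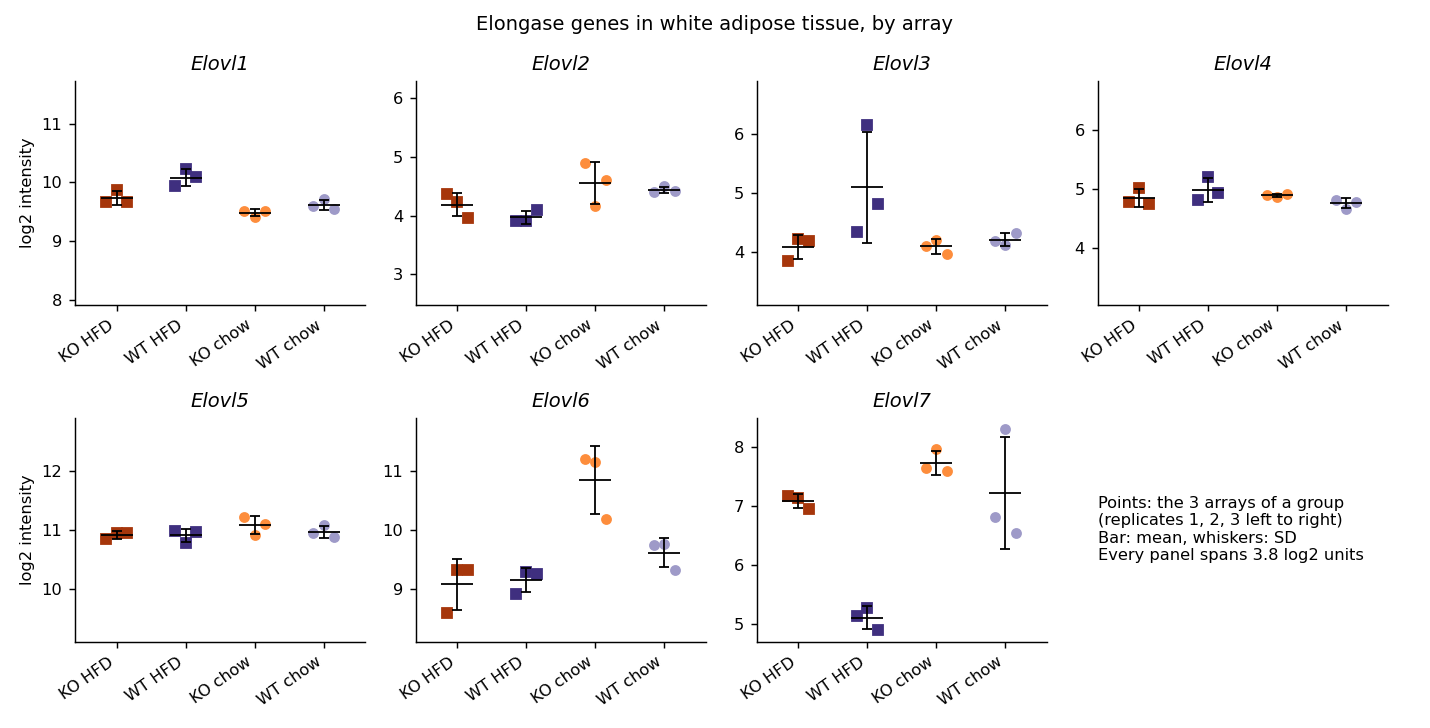
Log2 intensity of each elongase (y axis) on the 3 arrays of KO HFD, WT HFD, KO chow and WT chow (x axis); points are arrays, the bar is the mean and the whiskers the SD, and every panel spans the same range. Elovl7 is lowest in WT HFD, between 4.90 and 5.28, with KO HFD also below KO chow, Elovl6 is highest in KO chow, and the wide bar of Elovl3 in WT HFD comes from 1 array at 6.16.

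Elovl7 was kept in KO on HFD at a level that WT on HFD did not reach. Its log2 intensity was 7.17, 7.14 and 6.96 in KO on HFD, against 5.14, 5.28 and 4.90 in WT on HFD. On chow it was 7.66, 7.97 and 7.59 in KO and 6.82, 8.31 and 6.55 in WT. The 3 WT arrays on HFD lay below the other 9 arrays with no overlap. In order of their means the groups ran KO chow (7.74 ± 0.20, SD), WT chow (7.23 ± 0.95), KO HFD (7.09 ± 0.12) and WT HFD (5.11 ± 0.19). KO and WT overlapped on chow, and so did KO on HFD with WT on chow.

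On HFD Elovl7 rose in KO against WT by 1.98 ± 0.35 (adjusted p = 0.0072, 95% interval 1.22 to 2.75), a 3.95-fold difference. No detection call is given, and the WT HFD mean of 5.11 is not far above values that cannot be told from background. The size of the fold is therefore uncertain. The call held in each of 20 alternative settings, at adjusted p of 3.5e-05 to 0.035. These include the fit with only the 6 HFD arrays (adjusted p = 0.016), where 4 genes of all genes were called. In the same comparison 9 of 10 macrophage markers fell: their mean level was 9.05 to 9.33 in KO on HFD and 10.5 to 12.0 in WT on HFD. Their part in the Elovl7 difference was not tested. On chow the difference was 0.51 ± 0.35 (adjusted p = 0.95). That value rests on WT chow replicate 2, the highest of all 12 arrays at 8.31: without it the difference was 1.05 (adjusted p = 0.16). The interaction of genotype and diet was 1.47 ± 0.49 and did not pass (adjusted p = 0.16 in limma), so the genotype differences on the 2 diets were not shown to differ. Over all genes 0.00502% passed the interaction test, which is 1 gene; the count was 2060 without WT HFD replicate 1, 20 without WT chow replicate 2 and 2819 with array weights.

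By diet, Elovl7 fell in WT (-2.12 ± 0.35, adjusted p = 0.0023), to a mean of 5.11 on HFD against 7.23 on chow. The limit given above for the low WT HFD mean holds for the size of this fall too. In KO the difference of HFD from chow was -0.65 ± 0.35 (adjusted p = 0.30), although the arrays did not overlap. Without WT chow replicate 2 the WT difference was -1.58 (adjusted p = 0.0021). In KO the diet difference passed without that same array (-0.65, adjusted p = 0.024) and with only the KO arrays in the fit (adjusted p = 0.041). The genotype and diet comparisons share the WT HFD arrays, so they are not separate evidence.

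Elovl6 was highest in KO on chow. It lay at 11.21, 11.16 and 10.19 in KO on chow, against 9.76, 9.76 and 9.33 in WT on chow. On HFD it lay at 8.59, 9.32 and 9.33 in KO and at 8.92, 9.29 and 9.25 in WT. All 3 KO chow arrays were above all other arrays, with replicate 3 closest to the WT range, and on HFD the genotypes overlapped. The order of means was KO chow (10.85 ± 0.58, SD), WT chow (9.61 ± 0.25), WT HFD (9.16 ± 0.21) and KO HFD (9.08 ± 0.43). WT on chow lay just above WT on HFD, and the HFD groups did not differ beyond their spread.

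The KO difference of Elovl6 on chow was 1.24 ± 0.28 with an unadjusted p of 0.00087 in limma, and it missed the threshold over all genes (adjusted p = 0.52). It stayed positive, between 1.06 and 1.57, in 20 alternative settings, and the adjusted p was 0.19 at its lowest, without KO chow replicate 3. On HFD the difference was -0.08 ± 0.28 (adjusted p = 0.90, 95% interval -0.68 to 0.53). The interaction was -1.32 ± 0.39 (unadjusted p = 0.0060, adjusted p = 0.13 in limma). HFD lowered Elovl6 in KO: the difference from chow was -1.78 ± 0.28 (adjusted p = 0.012), 3.43-fold lower, and this call held in each of 20 settings (adjusted p 0.0059 to 0.048). In WT the diet difference was -0.46 ± 0.28 (adjusted p = 0.27).

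Elovl1, which makes saturated very long chains for sphingolipids, was highest in WT on HFD. It lay at 9.67, 9.88 and 9.67 in KO on HFD and at 9.93, 10.22 and 10.09 in WT on HFD. On chow it lay at 9.52, 9.42 and 9.52 in KO and at 9.60, 9.71 and 9.55 in WT. The genotypes did not overlap on either diet, and KO was the lower group on both. On HFD it fell in KO by 0.34 ± 0.09 (adjusted p = 0.028); on chow the difference was -0.14 ± 0.09 (adjusted p = 0.95). HFD raised it in WT by 0.46 ± 0.09 (adjusted p = 0.0046, called in each of 20 settings), while KO had 0.25 ± 0.09 (adjusted p = 0.12).

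The fall of Elovl1 in KO on HFD lost its call without KO HFD replicate 1 (adjusted p = 0.11) or 3 (0.099), without WT HFD replicate 2 (0.11) or 3 (0.087), and when the fit held the HFD arrays alone (0.105). Macrophage markers moved with it: 9 of 10 fell in KO on HFD and 1 did not pass. Their mean level was 9.05 to 9.33 in KO on HFD and 10.5 to 12.0 in WT on HFD, against 8.55 to 9.01 in KO and 8.93 to 9.47 in WT on chow. Their part in the result was not tested. On WT HFD replicates 1, 2 and 3 the marker mean lay at 10.5, 12.0 and 11.5, the same order as Elovl1. The other groups did not share the full order with Elovl1. In KO on chow the marker mean lay at 9.01, 8.55 and 8.61, with Elovl1 at 9.52, 9.42 and 9.52, so replicate 2 was lowest in both. In WT on chow the marker mean lay at 9.47, 8.93 and 9.16, with Elovl1 at 9.60, 9.71 and 9.55. In KO on HFD it lay at 9.05, 9.07 and 9.33, with Elovl1 at 9.67, 9.88 and 9.67. In whole tissue, fewer cells of a type and less RNA per cell cannot be told apart.

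Elovl3, the elongase of brown fat, was low except on part of the WT HFD arrays. It lay at 3.85, 4.22 and 4.20 in KO on HFD, against 4.34, 6.16 and 4.82 in WT on HFD. On chow it lay at 4.11, 4.21 and 3.96 in KO and at 4.19, 4.11 and 4.33 in WT. The table's lowest value is 2.09 and no detection call is given, so values near 4 cannot be told from background. On HFD the difference of KO from WT was -1.02 ± 0.34 (adjusted p = 0.074), and it was -0.49 (adjusted p = 0.092) without WT HFD replicate 2. It passed without WT HFD replicate 1 (-1.40, adjusted p = 0.0068) and with array weights (-0.72, adjusted p = 0.0069). The weighted value rests mostly on WT HFD replicate 3, which had a weight of 20.0, against 0.38 for each of replicates 1 and 2. HFD against chow gave 0.89 ± 0.34 in WT (adjusted p = 0.083) and -0.01 ± 0.34 in KO (adjusted p = 0.995).

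WT HFD replicate 2 was also the array where Ucp1, the uncoupling protein of brown fat, stood out. Ucp1 lay at 4.51, 4.56 and 4.48 in KO on HFD, against 4.44, 5.86 and 4.55 in WT on HFD, and between 4.40 and 4.61 on chow. Thus 11 arrays lay within 4.40 to 4.61 and 1 lay at 5.86. The other brown and beige fat genes did not move as a set on WT HFD replicate 2. There Cidea (5.19) and Prdm16 (6.31) were the lowest of all 12 arrays, and Otop1 (7.99) and Dio2 (5.32) the highest. Cox8b (7.19) and Cox7a1 (8.04) were the lowest of the WT HFD arrays, and Ppargc1a and Zic1 lay between the others. That array also had the highest mean macrophage marker level (12.0) and the lowest mean adipocyte marker level (12.3). Elovl3 on WT HFD replicate 3 was 4.82 with Ucp1 at 4.55. The part of these readouts in the Elovl3 values was not tested.

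**Figure D2:**
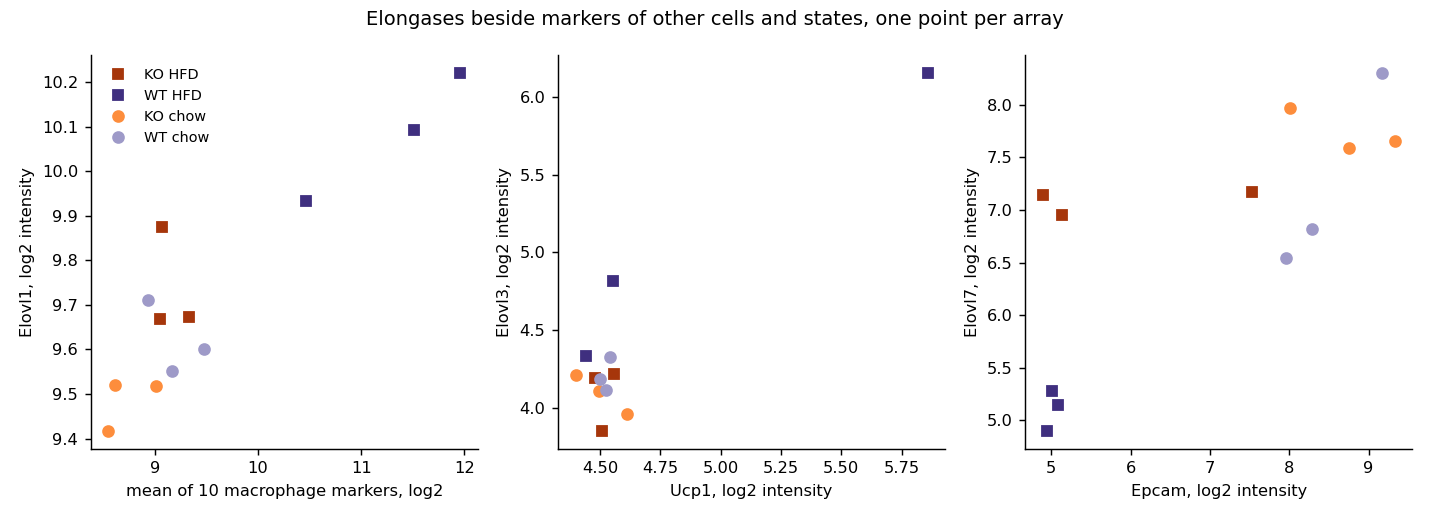
Log2 intensity on each of the 12 arrays of Elovl1 against the mean of 10 macrophage markers, Elovl3 against Ucp1, and Elovl7 against Epcam; colours and shapes give the 4 groups. The WT HFD arrays lie at the upper right for Elovl1, 1 array lies far out for Elovl3 and Ucp1, and the KO HFD arrays keep Elovl7 near 7 with Epcam from 4.89 to 7.53.

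For Elovl7, markers of epithelium were set beside the values, since Elovl7 is also known from epithelial tissues. Epcam, an adhesion molecule of epithelial cells, lay at 7.53, 4.89 and 5.14 in KO on HFD, against 5.09, 5.01 and 4.95 in WT on HFD. It lay at 9.33, 8.01 and 8.75 in KO on chow and at 8.29, 9.17 and 7.96 in WT on chow. Of 7 epithelial and male tract markers 0 passed for KO against WT on HFD, and 4 fell with HFD in each genotype: Epcam, Cdh1, Krt8 and Krt18. Of all genes 3.54% passed lower with HFD in KO and 12.3% in WT. Within WT on chow, Elovl7 and Epcam were both highest on replicate 2 (8.31 and 9.17). Within KO on chow, replicate 2 had the highest Elovl7 (7.97) and the lowest Epcam (8.01). KO HFD replicates 2 and 3 had Epcam at the level of WT on HFD and Elovl7 at 7.14 and 6.96. Without KO HFD replicate 1 the Elovl7 difference was 1.94 (adjusted p = 0.035). The part of the epithelial markers in the genotype and diet differences of Elovl7 was not tested; their mean level was 5.24 to 5.62 in WT on HFD, against 6.35 to 6.97 in WT on chow.

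Elovl5, Elovl2 and Elovl4 passed in none of the comparisons in the fit to all 12 arrays. Elovl5 lay between 10.77 and 11.23 on all 12 arrays; KO minus WT was 0.01 ± 0.09 on HFD (95% interval -0.20 to 0.21) and 0.11 ± 0.09 on chow (95% interval -0.09 to 0.32). Elovl2 lay at 4.36, 4.23 and 3.97 in KO on HFD and at 3.91, 3.90 and 4.10 in WT on HFD. On chow it lay at 4.89, 4.17 and 4.60 in KO and at 4.40, 4.49 and 4.43 in WT. The WT chow arrays were all above the WT HFD arrays, and the KO diets overlapped. HFD against chow was -0.47 ± 0.16 in WT (adjusted p = 0.051) and -0.37 ± 0.16 in KO (adjusted p = 0.19). The WT difference passed in 6 of 19 alternatives (lowest adjusted p = 0.014), and the KO difference in 1, without KO chow replicate 2 (-0.56, adjusted p = 0.026). Elovl4 lay between 4.67 and 5.21 on all arrays; KO minus WT was -0.14 ± 0.10 on HFD and 0.14 ± 0.10 on chow (adjusted p = 0.48 and 0.96). By diet Elovl4 had 0.23 ± 0.10 in WT (adjusted p = 0.15), which passed with quantile normalization (adjusted p = 0.045) and without WT HFD replicate 1 (0.049). Elovl2 and Elovl4 lay at or not far above values that cannot be told from background, so their differences are uncertain.

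By diet, 1 of 7 elongases passed in KO, where 6.34% of all genes passed (2.8% higher and 3.54% lower), and 2 of 7 in WT, where 24.1% did (11.8% higher and 12.3% lower). Elovl6 fell in KO; in WT Elovl7 fell and Elovl1 rose. The HFD and chow arrays did not overlap for 3 of 7 genes in KO (Elovl1, Elovl6 and Elovl7; 28.8% of all genes). In WT they did not overlap for 5 of 7 (those 3 with Elovl2 and Elovl3; 38.8% of all genes). For the interaction 0 of 7 passed in limma; Elovl6 and Elovl7 were the 2 members with an unadjusted p under 0.05. These 2 interactions passed together in 1 alternative, array weights, described under the processing.

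**Figure D3:**
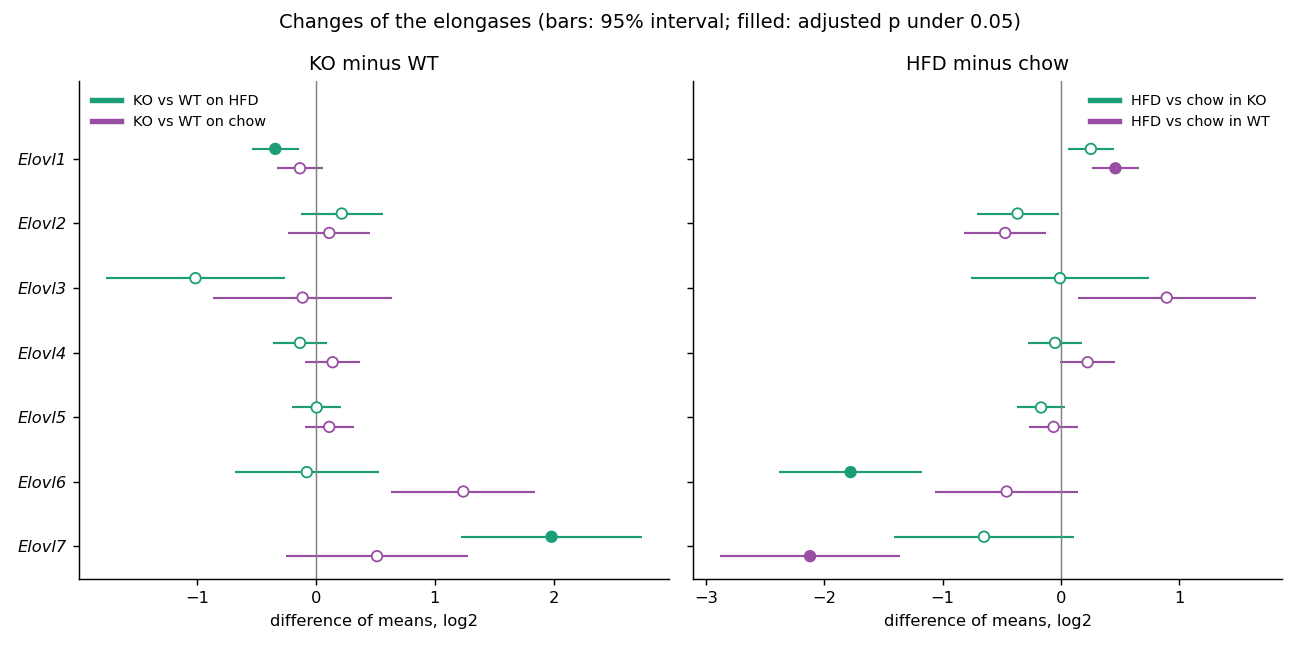
Difference of group means on the log2 scale (x axis) for each elongase (rows), KO minus WT on each diet at left and HFD minus chow in each genotype at right; bars are 95% intervals of the limma fit and filled points passed at an adjusted p under 0.05. Elovl7 stands out at 1.98 for KO on HFD, and Elovl6 at 1.24 for KO on chow and at -1.78 for HFD in KO.

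Of 6 partners of the elongases in the cycle 0 passed for KO against WT on either diet (median -0.03 on HFD and -0.12 on chow). On HFD the smallest p were those of Hsd17b12, the reductase of the cycle (-0.27 ± 0.12, adjusted p = 0.17), and the dehydratase Hacd2 (0.17 ± 0.08, 0.19). On chow they were those of Tecr, the closing reductase (0.32 ± 0.09, adjusted p = 0.68), and Hacd3 (-0.18 ± 0.08, 0.89). By diet Hacd2 fell in WT (-0.32 ± 0.08, adjusted p = 0.012), and 5 of 6 did not pass, where 24.1% of all genes passed. In KO 0 of 6 passed, where 6.34% of all genes did.

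Fatty acid synthesis feeds the elongases with palmitate, though not all of the 9 genes listed serve that route. Of the 9 genes 3 rose in KO on HFD, where 6.65% of all genes did, and 6 did not pass, with a median of 0.19. Those 6 were Acly (0.22), Oxsm (0.19), Fasn (0.13), Slc25a1 (-0.17), Acss2 (-0.37) and Me1 (-0.45). Acaca and Acacb, the acetyl-CoA carboxylases that make malonyl-CoA, rose by 0.93 ± 0.22 (adjusted p = 0.021) and 0.88 ± 0.18 (0.012), and Mcat, the mitochondrial malonyl transferase, by 0.44 ± 0.07 (0.0059). Acaca lay at 11.33, 11.47 and 11.77 in KO on HFD, against 11.15, 10.11 and 10.51 in WT on HFD. On chow 0 of 9 passed and the median was 0.28; the citrate carrier Slc25a1 had 0.44 ± 0.14 and the citrate lyase Acly 0.69 ± 0.23 (adjusted p = 0.74 and 0.76). The mean level of the 9 genes was 11.3 to 11.5 in KO on chow, against 10.9 to 11.2 in WT on chow, without overlap. Taken singly, 3 of the 9 did not overlap, where 11.5% of all genes did not, and Oxsm had -0.03. HFD lowered 6 of 9 in KO and 4 of 9 in WT, where 3.54% and 12.3% of all genes passed lower. In KO Slc25a1 (-0.85 ± 0.14) and the malic enzyme Me1 (-0.80 ± 0.14) fell, and in WT Acacb (-1.37 ± 0.18) and Mcat (-0.53 ± 0.07) fell.

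Of 13 regulators of elongase transcription 4 rose in KO on HFD, where 6.65% of all genes did, and 9 did not pass (median 0.29). Those 9 were Ppara (0.46), Insig2 (0.37), Pparg (0.29), Scap (0.17), Nr1h3 (0.10), Mid1ip1 (0.10), Mlx (-0.19), Nfya (-0.52) and Insig1 (-0.85). Srebf1, which encodes SREBP-1, rose by 0.70 ± 0.14 (adjusted p = 0.011), with 10.47, 10.57 and 10.50 in KO on HFD, against 10.08, 9.40 and 9.96 in WT on HFD. Mlxipl, which encodes the carbohydrate response factor ChREBP, rose by 0.77 ± 0.13 (0.0070), the lipogenic Thrsp by 1.30 ± 0.31 (0.020) and the nuclear receptor Rxra by 0.50 ± 0.13 (0.029). Elovl6, a target of SREBP-1c, had -0.08 ± 0.28 in that comparison. On chow 0 of 13 passed; Rxra had 0.18 ± 0.13 and Srebf1 0.17 ± 0.14 (adjusted p = 0.96 each). HFD lowered 6 of 13 and raised 1 in WT, where 12.3% of all genes passed lower and 11.8% higher. Srebf1 (-0.93 ± 0.14) and Mlxipl (-0.85 ± 0.13) were among those lowered. In KO 0 of 13 passed, where 6.34% of all genes did. WT HFD replicate 2, the array with the highest macrophage marker mean, was the lowest WT HFD array for Srebf1, Mlxipl and Acaca, and the part of those markers in these rises was not tested.

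**Figure D4:**
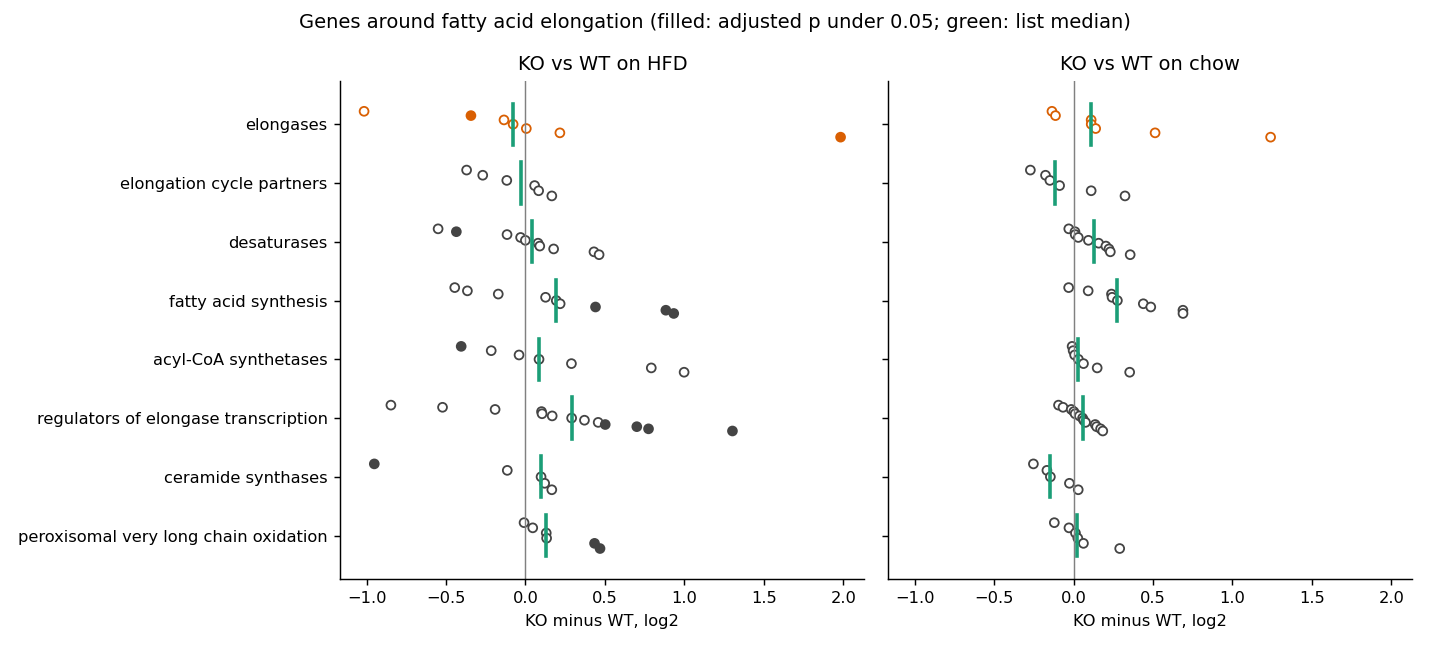
KO minus WT on the log2 scale (x axis) on HFD at left and on chow at right for the elongases and 7 lists around them (rows); points are genes, filled where the adjusted p was under 0.05, and green bars are list medians. On HFD Elovl7 lies at 1.98, beyond all members of the other lists, and on chow no point is filled.

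Desaturases place double bonds into fatty chains, which need not come from the elongases. Of 10, Degs1, which makes ceramide from dihydroceramide, fell in KO on HFD by 0.44 ± 0.10 (adjusted p = 0.018). The other 9 did not pass, where 13.5% of all genes passed. On chow 0 of 10 passed; Scd3 had 0.16 ± 0.08 and Fads1 0.22 ± 0.15. Fads1 and Fads2, which work with Elovl5 and Elovl2 on polyunsaturated chains, fell with HFD in both genotypes. Fads1 had -0.997 ± 0.15 in KO and -1.21 ± 0.15 in WT, and Fads2 had -1.68 ± 0.30 in KO and -1.78 ± 0.30 in WT (adjusted p of 0.00075 to 0.017). Elovl5 had -0.17 ± 0.09 in KO and -0.06 ± 0.09 in WT. Fads2 lay at 9.34, 8.47 and 8.26 in KO on HFD and at 10.78, 9.91 and 10.41 in KO on chow; Epcam, given above, was also higher on chow, and its part was not tested.

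Ceramide synthases, acyl-CoA synthetases and peroxisomal oxidation also act on long or very long chains, which need not come from the elongases. In KO against WT on HFD 13.5% of all genes passed. Cers6, a ceramide synthase, fell in KO on HFD by 0.95 ± 0.13 (adjusted p = 0.0044), and the other 4 of 5 did not pass. It rose with HFD in WT by 0.39 ± 0.13 (0.048), and Cers5 rose with HFD in KO by 0.32 ± 0.07 (0.023). On chow Cers5 had -0.15 ± 0.07 and Cers4 -0.25 ± 0.18, and 0 of 5 passed. Of 7 acyl-CoA synthetases Acsl4, which prefers arachidonate, fell in KO on HFD by 0.40 ± 0.11 (0.030); on chow 0 passed, with Acsl6 at 0.15 ± 0.06 and Slc27a2 at 0.35 ± 0.57. HFD raised Acsl5 in KO (0.37 ± 0.08) and WT (0.58 ± 0.08), and Slc27a2 fell in KO (-2.50 ± 0.57) and WT (-3.14 ± 0.57). Slc27a2 lay at 7.40, 5.12 and 5.06 in KO on HFD, where Epcam lay at 7.53, 4.89 and 5.14, and both were higher on chow. With HFD 4 of 7 epithelial and male tract markers fell in each genotype, and their part in the Slc27a2 values was not tested. Of 6 peroxisomal genes Scp2 (0.43 ± 0.11, 0.029) and Abcd2, a transporter of very long chain acyl-CoA (0.47 ± 0.13, 0.041), rose in KO on HFD. Scp2 fell with HFD in WT (-0.63 ± 0.11). The macrophage markers given above fell in the same comparison of KO with WT on HFD. Cers6 and Acsl4 were highest, and Scp2 and Abcd2 lowest, on WT HFD replicate 2, the array with the highest marker mean. The part of the markers in these changes was not tested. On chow 0 of 6 passed; Acaa1b had 0.29 ± 0.13 and Hsd17b4 -0.12 ± 0.08.

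The genes with the pattern most like each elongase were found by Pearson's r of log2 values over the 12 arrays, among 17144 genes. These are the highest values among many genes, they take in the group differences, and they are given as a description. Elovl7 was matched best by Ube2e3 (r = 0.97), Dennd11 and Naprt (0.94 each), and Elovl6 by Slc25a1 (0.95), Cox5a and Parm1 (0.94 each). Elovl1 was matched by Erp29, Ckap4 and Dtx4 (0.97 each), and Elovl3 by Slfn10-ps, Myh15 and Zc3h12d (0.97 each). Elovl2 was matched by Wfdc8, B4galnt4 and Plch1 (0.96 each), Elovl4 by Zbtb45 (0.91), Cd276 (0.90) and Hlx (0.89), and Elovl5 by Hopx (0.91), Slc35g1 and Trim31 (0.89 each). After the 4 group means were taken out, the best 3 matches of the 7 elongases had r between 0.92 and 0.98. They were then BC018473, Ammecr1l and Fbxw24 for Elovl7, and Srp19, Atox1 and Znhit1 for Elovl6. Elovl1 had Lmnb1, Slc11a2 and Iba57, Elovl3 had Shc2, Stk4 and Mmp13, and Elovl2 had Lama5, Hydin and again Wfdc8. Elovl4 had Fancd2, Capzb and Igdcc4, and Elovl5 had Plekha7, Tspan3 and again Slc35g1.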

How the data were processed

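The authors deposited 1 table of 34760 probe sets by 12 arrays as log2 intensities, a base read from their range (2.09 to 14.2). The submitters' processing notes name affy without a version. The sources used here do not say how background was corrected and arrays normalized. Array medians lay between 5.78 and 5.92. The values were used as deposited. Rows were named through the platform annotation: 21640 rows have 1 symbol, 1321 several, and 11799 are unnamed here; 21553 matched RefSeq GRCm38.p6 by Entrez identifier. The row with the highest mean stood for a gene. The table gives no detection calls; the number of arrays limits the precision.

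A mean per group was fitted in limma 3.58.1 (R 4.3.3) with eBayes and two-sided tests, and Benjamini-Hochberg adjustment over 19937 genes; the fit was tested on simulated data. Members, lists, comparisons and alternatives were chosen with earlier results of these data known. Genes were named by rule: the 7 elongases and Ahnak; from each list the 4 members with the smallest p among those that passed by genotype (otherwise the 2 with the smallest p) and up to 2 that passed by diet; and the 3 best correlates of each elongase, in values and in residuals from the group means, passing over other elongases, predicted genes and clones, olfactory and vomeronasal receptors and small RNAs. Alternatives were array weights, a trended robust prior, quantile normalization, median centring, a filter on low values, the mean of a gene's rows, only the compared groups, a replicate block, and leaving out each array. Ucp1, Krt8, Krt18, further members of the lists and listed values per array were added after the data were seen. Some genes of these lists are not analysed here. Same-numbered replicates did not deviate together (r over 0.1 in 4 of 18 pairs), so the main fit has no block.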

Additional observations from a re-analysis of the deposited data

How the results depend on the processing

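Elovl7 for KO against WT on HFD (1.88 to 2.15), Elovl7 (-2.46 to -1.58) and Elovl1 (0.39 to 0.54) by diet in WT, and Elovl6 by diet in KO (-2.11 to -1.53) kept their calls in all 20 alternatives. The number of elongases passed on HFD by genotype was 1 with only the compared groups and 1 to 3 without single arrays, where Elovl3 joined without WT HFD replicate 1, as it did with array weights. By diet it was 2 in KO with median centring or only the compared groups and 1 to 2 without single arrays, and in WT 4 with array weights, Elovl2 and Elovl3 joining, and 2 to 4 without single arrays. With array weights 2 interactions passed, Elovl6 (-1.30, adjusted p = 0.020) and Elovl7 (1.51, 0.028). The estimate of the weights stopped before it converged and gave WT HFD replicate 3 a weight of 20.0. On chow by genotype 0 passed in every setting. With the replicate block the counts were 2 on HFD and 0 on chow by genotype, 1 in KO and 2 in WT by diet, and 0 for the interaction, and no elongase changed its call. The HFD count over all genes was 2691, against 4 with only the compared groups, 7648 with array weights and 904 to 3930 without single arrays; the diet count in KO was 1264, against 585 with only the compared groups, 740 with the block, 2137 with array weights and 62 (without KO HFD replicate 3) to 1509 without single arrays, and in WT 4802, against 9985 with array weights. The interaction count was 1, against 2819 with array weights, 85 with the filter on low values, 0 with the block and 0 to 2060 without single arrays. Signs turned for uncalled values near 0: with array weights Elovl2 (-0.0916, interaction), Elovl3 (0.0255, diet in KO), Elovl5 (0.00862, diet in WT; -0.0438, KO on HFD); with median centring Elovl3 (0.0639) and Elovl4 (0.0233), diet in KO, and Elovl5 (0.00343), diet in WT; with quantile normalization Elovl3 (0.0343) and Elovl4 (0.0530), diet in KO. Without single arrays these ran from -0.0871 to 0.27 for Elovl2 (interaction), -0.0560 to 0.30 for Elovl2 (KO on chow), -0.0750 to 0.11 for Elovl3 and -0.13 to 0.000918 for Elovl4 (diet in KO). They ran from -0.10 to 0.00480 for Elovl5 (diet in WT), -0.0609 to 0.0405 for Elovl5 and -0.20 to 0.17 for Elovl6 (KO on HFD). The cause was not tested. The filter on low values left out Elovl2, Elovl3 and Elovl4, which then have no value.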

Other observations

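Of 9 genes of brown and beige fat 2 fell in KO on HFD, where 6.85% of all genes passed lower, and 7 did not pass. Dio2, the deiodinase that activates thyroid hormone, fell by 0.72 ± 0.13 and Otop1 by 1.47 ± 0.26 (limma adjusted p = 0.0075 each). Dio2 means were 4.45 in KO and 5.16 in WT on HFD, not far above values that cannot be told from background. Of the 7, Ppargc1a (0.60 ± 0.18, adjusted p = 0.053), Cidea (0.20) and Prdm16 (0.10) lay higher in KO. Ucp1, Cox8b, Cox7a1 and Zic1 lay lower. On chow 0 of 9 passed; Cox8b had 0.91 ± 0.24 and Prdm16 0.19 ± 0.08. HFD lowered Cidea in KO by 0.86 ± 0.18 and in WT by 1.02 ± 0.18, Cox8b in KO by 0.96 ± 0.24 and Ppargc1a in WT by 1.06 ± 0.18. Dio2 and Otop1 moved in the comparison in which macrophage markers fell, and the part of those markers was not tested.

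Between KO and WT on HFD, where 13.5% of all genes passed, the macrophage markers Mmp12 (-4.28 ± 0.47), Itgax (-3.70 ± 0.46), Ctss (-1.80 ± 0.23) and Gpnmb (-3.77 ± 0.50) fell. Of 7 adipocyte markers Plin1 (0.52 ± 0.10) and Lipe (0.49 ± 0.12) rose and Lep fell by 0.48 ± 0.12. Of 7 lymphocyte markers Cd79b fell by 0.43 ± 0.10, and of 6 endothelial markers Tek rose by 0.51 ± 0.14. Among 5 stromal, 6 mesothelial, 7 epithelial and male tract and 6 skeletal muscle markers 0 passed in that comparison in limma. The smallest p there were those of Cd34 (0.22 ± 0.11) and Pi16, Msln and Wt1, Lcn5 and Cdh1, and Acta1 (-1.06 ± 0.49) and Mb. On chow 0 markers of any of these lists passed by genotype in limma; Mmp12 had -1.48 ± 0.47, Cd79b -0.30 ± 0.10, Cd79a -0.63 ± 0.22 and Lep -0.38 ± 0.12 (adjusted p of 0.74 to 0.78). By diet Lep rose in KO (0.78 ± 0.12) and WT (0.88 ± 0.12), Plin1 fell in WT (-0.46 ± 0.10), Mb fell in KO (-0.52 ± 0.10), and Mmp12 (4.32 ± 0.47) and Itgax (3.73 ± 0.46) rose in WT.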
